A study of Rattus norvegicus with 49 samples.

Results

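The extracellular matrix and fibrosis genes of the rat thyroid were followed in 49 Agilent one-colour gene expression arrays, each hybridised, per the labels, with RNA from an individual rat. The set was a list of 40 genes fixed by name, covering collagens, elastic fibre and adhesive glycoproteins, crosslinking enzymes, small leucine-rich proteoglycans, matricellular proteins, matrix metalloproteinases and their inhibitors, and the ligands and receptors of transforming growth factor beta (TGF-beta). Of these, 33 had a probe whose RefSeq accession carried their symbol, among 15154 genes with such a probe, and all 33 passed the filter on dim probes. No such probe was found for Col4a2, Col5a2, Col6a1, Col6a3, Col12a1, Col15a1 and Lox, which were not analysed here. Where a gene had more than 1 probe, the brightest over all arrays was used.

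All animals were male Sprague Dawley rats. Exposed rats received a single injection of 131I, a beta-emitting isotope of iodine that the thyroid takes up and stores, at 5 weeks of age (young) or at 17 weeks (adult). Young rats given 50 kBq were killed after 3, 6 and 9 months, aged 4, 7 and 10 months, and young rats given 0.5, 5 and 500 kBq after 9 months only. Adult rats given 50 kBq were killed after 3, 6 and 9 months, aged 7, 10 and 13 months. Untreated controls were 4, 7, 10 and 13 months old. Each of the 13 groups held 4 arrays, except that young rats given 5 kBq and the controls of 7 and of 13 months had 3. The tissue was the whole thyroid, so its RNA came from follicular cells, C cells, stroma and vessels together. Markers of skeletal muscle, and on some arrays of other tissues, were also present, as given below. A lower level of a stromal gene from fewer stromal cells cannot be told apart from less RNA per cell. The titles tell the samples of a group apart by a replicate number only, and the p-values measure the spread between these arrays.

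Thyroid follicles lie on a basement membrane built around type IV collagen, and are set in a stroma of type I and type III fibrillar collagen made by fibroblasts. The fibrils are assembled on type V collagen and small proteoglycans, joined by lysyl oxidases, and taken down by metalloproteinases that TIMP proteins inhibit. TGF-beta raises the production of collagens and of fibronectin, and radiation fibrosis is the excess deposition of this matrix that can follow exposure of a tissue to radiation.

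Levels are given as the log2 of the background-corrected probe signal minus the 75th percentile of all probes on the same array, so 0 is the level of a probe at that percentile. Levels of different probes are not compared with each other. A gene was called changed at an adjusted p under 0.01 with a fold change beyond 1.5, by limma fitted to all arrays and adjusted over the 25304 probes tested. Of the 33 genes, 30 were well above background on 48 or 49 arrays. Tnc was so on 18 arrays, Thbs1 on 5 and Mmp3 on 3, and the levels of these 3 genes are mostly bounds.

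A few arrays stood apart. One array of young rats killed 3 months after 50 kBq (replicate 2) was dim, with a 75th percentile signal of 61.0 against 783 to 4172 on the other 48 arrays and 42.9% of probes well above background. On another array of that group (replicate 3), and on replicate 2 of the 7-month controls, the mean level of 12 thyrocyte genes was -4.60 and -5.42, against -0.31 to 2.11 on the other 47 arrays. Thyroglobulin, the most abundant thyrocyte protein, was at 0.14 and -0.69 on them against at least 6.41 elsewhere. The labelled tissue was thus not borne out by the levels of its markers there. The markers were low rather than absent, with 7 and 8 of the 12 genes well above background, against at least 10 on each other array. Replicates 1 and 2 of the 13-month controls, and replicates 1 and 2 of adult rats 6 months after 50 kBq, were the closest of all 1176 pairs of arrays, with a spread of log2 differences of 0.164 and 0.192 against a median of 0.493. Whether each of these pairs came from separate animals could not be told, and if not, the 13-month controls would count as 2 samples. Results that rest on these arrays are given again over 44 arrays, with the 3 doubtful arrays left out and each near-identical pair averaged. That alternative was chosen after seeing the data.

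The 5′ regions of 26 of the 40 genes were in the RefSeq promoter table of the rat build GRCr8, from 250 bases before to 50 bases after the annotated start. The TATA box letters TATAAA, on either strand, stood in 4 of these 26 (Col1a2, Mmp3, Postn and Tnc), which is 15.4% against 14.2% of all 33469 promoters. CCAAT, searched on both strands, stood in 9 (34.6% against 37.5%), and the GC box letters GGGCGG in 12 (46.2% against 33.1%). These shares are descriptions, and a match is not a shown binding site. Shown next are Col1a2, Fbn1 and Tnc, a fibrillar collagen, an elastic fibre gene and a matricellular gene whose levels with age are given in full, and Col4a1, a basement membrane collagen set beside them. All are written 5′ to 3′ in the direction of the gene, with TATAAA and CCAAT, or their reverse complements, in capitals.
Col1a2, chr4:33518307-33518606, plus strand: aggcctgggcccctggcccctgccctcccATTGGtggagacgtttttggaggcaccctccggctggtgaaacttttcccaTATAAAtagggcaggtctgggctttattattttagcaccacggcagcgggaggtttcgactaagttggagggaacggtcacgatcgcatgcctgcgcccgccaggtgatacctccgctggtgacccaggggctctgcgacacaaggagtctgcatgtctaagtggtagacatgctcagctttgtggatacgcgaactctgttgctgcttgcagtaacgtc
Fbn1, chr3:133203341-133203640, minus strand: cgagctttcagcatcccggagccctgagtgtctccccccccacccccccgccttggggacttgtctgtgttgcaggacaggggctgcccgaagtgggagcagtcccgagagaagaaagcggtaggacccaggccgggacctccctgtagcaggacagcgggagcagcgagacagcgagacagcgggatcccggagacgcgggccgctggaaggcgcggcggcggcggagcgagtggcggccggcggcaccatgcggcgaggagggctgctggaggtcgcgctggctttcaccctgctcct
Tnc, chr5:82476082-82476381, minus strand: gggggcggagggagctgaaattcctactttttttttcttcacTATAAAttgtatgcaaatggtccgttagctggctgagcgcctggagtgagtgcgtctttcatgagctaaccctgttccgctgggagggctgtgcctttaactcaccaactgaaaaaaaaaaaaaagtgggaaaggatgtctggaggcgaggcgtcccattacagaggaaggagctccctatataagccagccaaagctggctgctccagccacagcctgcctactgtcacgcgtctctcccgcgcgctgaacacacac
Col4a1, chr16:84885347-84885646, plus strand: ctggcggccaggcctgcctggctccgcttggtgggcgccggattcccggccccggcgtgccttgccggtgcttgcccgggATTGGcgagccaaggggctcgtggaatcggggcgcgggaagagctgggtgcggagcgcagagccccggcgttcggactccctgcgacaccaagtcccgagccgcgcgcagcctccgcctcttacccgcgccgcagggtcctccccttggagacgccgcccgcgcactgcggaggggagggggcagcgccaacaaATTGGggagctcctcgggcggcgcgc
The Col1a2 region held a TATAAA and, upstream of it, a CCAAT on the opposite strand, Tnc held a TATAAA, Col4a1 held 2 CCAAT on the opposite strand and Fbn1 held neither.

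No matrix gene passed the test for a change after 131I, at any activity or time. In each of the 9 comparisons of exposed rats with controls of the same age, 0 of the 33 genes were called by limma. In young rats at 9 months 0.0119% of all probes were called after 5 kBq, the same share after 50 kBq, and 0% after 0.5 and after 500 kBq. The median log2 fold change of the 33 genes was 0.10, 0.07, 0.06 and 0.07 from the lowest to the highest activity, beside -0.00, -0.02, 0.04 and 0.06 over all probes. At an unadjusted p under 0.05 there were 1, 1, 1 and 0 of the genes in that order, beside 0.929%, 1.82%, 1.41% and 1.63% of all probes. Over 44 arrays there were 2, 3, 1 and 1, beside 2.43%, 6.22%, 4.6% and 5.11%. These 4 comparisons share the 4 control arrays of 10 months. Within a scan date, the medians ran from -0.17 to 0.18 in these 4 comparisons, with as few as 1 array against 1.

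Col1a1, which encodes the main chain of type I collagen, shows how close the groups lay at 9 months. Its level was 0.66, 0.47, 1.12 and 0.73 in the 4 untreated rats of 10 months. It was 1.39, 1.32, -0.81 and 1.01 after 0.5 kBq and 1.07, 0.26 and 1.10 after 5 kBq. The 50 kBq rats had 1.67, 0.29, 1.43 and 0.19, and the 500 kBq rats 0.69, 1.08, 1.22 and 0.57. All 4 exposed groups overlapped the controls, and the widest departure was 1 low array at 0.5 kBq. The log2 fold changes were -0.02, 0.06, 0.15 and 0.15 from the lowest to the highest activity, with a 95% confidence interval of -0.66 to 0.96 at 50 kBq and -0.66 to 0.95 at 500 kBq. Changes within those bounds were not excluded with these numbers of arrays. A change beyond them could also go uncalled at the adjusted p used.

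Tgfb1, the TGF-beta ligand most often linked to fibrosis, had the smallest unadjusted p of the 33 genes in young rats at 0.5, 50 and 500 kBq and in adult rats at 6 months. The 4 controls of 10 months had -4.68, -4.62, -4.15 and -4.72. Young rats given 0.5 kBq had -3.86, -3.45, -4.54 and -4.32, and those given 5 kBq -4.24, -4.17 and -3.76. At 50 kBq the 4 values were -3.92, -4.06, -3.80 and -4.15 and at 500 kBq -4.16, -4.11, -3.97 and -4.06. Only 1 of the controls lay at or above the lowest 50 kBq array, and the other 3 lay below every array at 5, 50 and 500 kBq. The log2 fold changes were 0.50 ± 0.23 (SE), 0.48 ± 0.25, 0.56 ± 0.23 and 0.47 ± 0.23 from the lowest to the highest activity, with unadjusted p of 0.037, 0.060, 0.021 and 0.051 and an adjusted p of 1.00 in each. Adult rats 6 months after 50 kBq, compared with the same 4 controls, had -3.99, -4.28, -4.12 and -3.86, a log2 fold change of 0.48 ± 0.23 with an adjusted p of 1.00. The 4 values at 10 months of age after exposure thus did not order by activity, and the slope on log10 activity was -0.00 ± 0.06 per 10-fold (adjusted p = 1.00). Timp3, an inhibitor of metalloproteinases that binds to the matrix, had the smallest unadjusted p at 5 kBq, with a log2 fold change of 0.93 (unadjusted p = 0.034, adjusted p = 1.00).

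**Figure D1:**
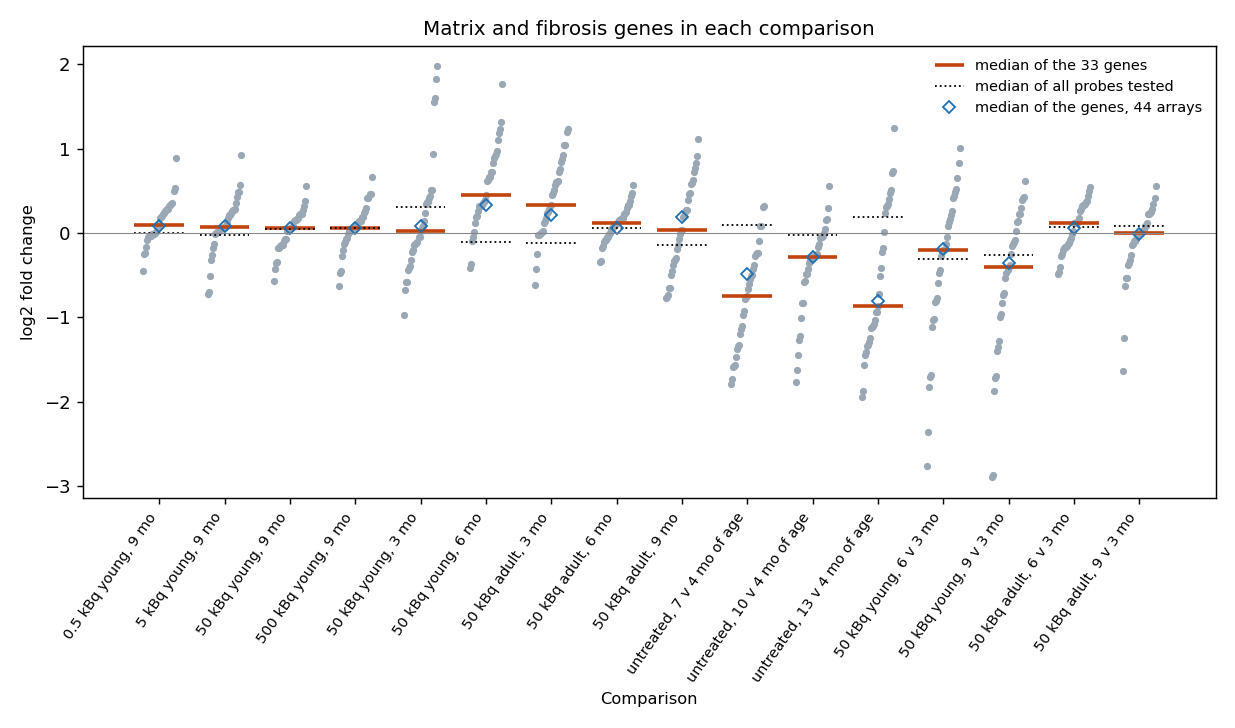
Log2 fold changes of the 33 matrix genes (grey points) in each comparison, with their median (orange line), the median of all probes (dotted line) and the median over 44 arrays (blue diamond). The exposure medians lie between 0.02 and 0.45, and the age comparisons of the controls between -0.87 and -0.28.

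Activity and the differences between times or ages at injection gave no call either. Rats given 500 kBq against 0.5 kBq had a median of -0.07 over the 33 genes with 0 called (0% of probes) and 0 at an unadjusted p under 0.05 (0.937% of probes). The slope on activity over the 15 exposed arrays at 9 months had 0 of 31 tested genes called (0% of probes) and 0 at an unadjusted p under 0.05 (2.6% of probes). The 50 kBq effect in young rats at 9 months minus that at 3 months, and minus that in adult rats at 9 months, had 0 called each (0% of probes for both), with 2 genes each at an unadjusted p under 0.05 (17.5% and 13.3% of probes). For Col1a1 the first of these differences was -0.28 (95% CI -1.42 to 0.86) and the second -0.10 (95% CI -1.29 to 1.09).

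At 4 months of age, 3 months after 50 kBq in young rats, the median of the 33 genes was 0.02 while that of all probes was 0.30 (0.09 and 0.02 over 44 arrays), with 0 of the genes and 0.0158% of probes called. Here 4 of the genes, and 37.9% of all probes, had an unadjusted p under 0.05. Over 44 arrays it was 1 gene and 9.79% of probes. Thbs1, an adhesive glycoprotein that can activate TGF-beta, had the smallest p of the set (adjusted p = 0.023), but was not well above background on any of the 8 arrays, and its adjusted p was 0.78 over 44 arrays. Fmod was at 1.97 (adjusted p = 0.025) and the receptor gene Tgfbr2 at 1.60 (adjusted p = 0.029), both well above background on all 49 arrays. Over 44 arrays the smallest adjusted p of the set was 0.50, for Fmod. Of the other list genes, Col1a1 had 2.13, 2.71, 1.77 and 2.13 in the controls and 2.67, 1.70, 3.31 and 2.80 in the exposed rats, overlapping ranges.

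The largest medians of the set came at 7 months of age, where both exposed groups were compared with the same 3 control arrays. Young rats 6 months after 50 kBq had a median log2 fold change of 0.45 over the 33 genes (-0.11 over all probes), with 4 genes below 0 (61.9% of probes) and 0 called (0% of probes). Adult rats 3 months after 50 kBq had a median of 0.33 (-0.11 over all probes), with 6 below 0 (64.5% of probes) and 0 called (0% of probes). At an unadjusted p under 0.05 there were 9 genes (6.55% of probes) and 5 genes (4.73% of probes). Lum, which encodes lumican, a small proteoglycan that spaces collagen fibrils, was -2.33, -2.62 and -0.81 in the controls, -0.05, -0.55, -0.75 and 0.72 in the young and -0.996, -0.69, -1.95 and 0.14 in the adult rats. In the young comparison its log2 fold change of 1.77 ± 0.58 had the smallest p (adjusted p = 0.51), and in the adult comparison that gene was Col14a1, a collagen of fibril surfaces, at 1.24 (adjusted p = 1.00).

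Of the 3 controls, replicates 1 and 2 were low in many matrix genes and replicate 3 was not. For Col1a1 they had 0.28, -0.12 and 1.61, while the young exposed rats had 1.38, 1.45, 1.35 and 1.85 and the adult ones 0.88, 1.33, 1.33 and 1.26. Replicate 2 is an array low in thyrocyte markers. Over 44 arrays the medians were 0.33 and 0.22, with 5 and 1 genes at an unadjusted p under 0.05, beside 10.2% and 7.97% of probes. With replicate 3 left out instead, the young median was 0.85. Young rats at 6 months and the 7-month controls shared no scan date. With scan date as a block the median was 0.49, and the adult median within the scan date it shared with the controls was 0.16.

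In older adult rats the set again had no call. At 10 months of age, 6 months after 50 kBq, the median was 0.12 (0.06 over all probes), with 0 called (0% of probes), 1 gene at an unadjusted p under 0.05 (0.79% of probes) and 1 over 44 arrays (3.4%). Within scan dates it was 0.33 and -0.09. At 13 months of age, 9 months after 50 kBq, the median was 0.04 (-0.14 over all probes), with 0 genes and 0.557% of probes called, and 3 genes at an unadjusted p under 0.05 (21.9% of probes), or 4 over 44 arrays (27.6%). Tgfb3, another TGF-beta ligand, had the smallest p there, at 0.63 (unadjusted p = 0.042, adjusted p = 0.21). Its values were -1.62, -1.63 and -1.47 in the controls and -0.54, -1.02, -1.30 and -0.93 in the exposed rats, which did not overlap. Every exposed array lay above every control for 9.76% of probes.

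In the untreated rats, Col1a1 and the elastic fibre gene Fbn1 were lower at 13 months than at 4 months. At 13 months, 2 of the 33 genes were called, both lower, while 5.15% of all probes were called and 2.1% were called lower. Col1a1 fell by 1.87 ± 0.43 (SE) on the log2 scale (adjusted p = 0.0046), a level 3.65-fold lower, and Fbn1, which encodes the fibrillin of microfibrils, fell by 1.57 ± 0.41 (adjusted p = 0.0088), 2.97-fold lower. The median log2 fold change of the set was -0.87, with 22 of 33 below 0 (40.1% of probes), while the median of all probes was 0.19. At an unadjusted p under 0.05, 16 genes were lower, beside 13.5% of probes. In 14 of the genes every 13-month array lay below every 4-month array, beside 12.8% of probes.

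How many genes passed at 13 months depended on the arrays. Over 44 arrays 5 were called lower (Col1a1, Col3a1, Fbn1, Lum and Mmp2; 2.98% of probes lower) and Col1a1 was at -2.05. Without the dim array alone 6 were called (16% of probes), of which 5 were lower and Timp3 was higher. With only the near-identical pairs averaged, 0 were called (0.0158% of probes). Leaving out 1 of the 7 arrays compared gave 0 calls for 6 of them (0.0435% to 5.38% of probes) and 5 calls without replicate 3 of the 4-month controls (8.23% of probes), while the Col1a1 difference ran from -2.07 to -1.51. Within the first scan date (2 arrays against 2) the set's median was -1.03 and Col1a1 was at -2.27, and within the second (1 against 2) the median was 0.01 and Col1a1 was at -1.31. The other probe of Col1a1 gave -1.72 (adjusted p = 0.011).

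The controls of 7 and 10 months lay on the same side of the 4-month controls, without a call. At 7 months the median of the set was -0.75 (0.10 over all probes), with 29 of 33 below 0 (37.6% of probes), 0 called (0.00395% of probes) and 14 lower at an unadjusted p under 0.05 (3.87% of probes). Over 44 arrays, without the 7-month array that was low in thyrocyte markers, the median was -0.48. At 10 months it was -0.28 (-0.02 over all probes), with 27 below 0 (53.3% of probes), 0 called (0.0119% of probes) and 8 lower at an unadjusted p under 0.05 (1.29% of probes). Every array lay below every 4-month array for 6 genes in each comparison, beside 1.43% and 1.3% of probes. Within the scan date they shared, the medians were -0.29 at 7 months and -0.60 at 10 months. Without replicate 3 of the 4-month controls the 10-month median was -0.48. The 3 age comparisons share the 4 control arrays of 4 months. The slope per month of age over the 14 controls called 0 of 31 genes (0% of probes), 10 having an unadjusted p under 0.05 (24.1% of probes), and was -0.19 ± 0.05 per month for Col1a1 (adjusted p = 0.13).

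Among the fibrillar collagens, Col1a1 was 2.13, 2.71, 1.77 and 2.13 at 4 months, 0.28, -0.12 and 1.61 at 7, 0.66, 0.47, 1.12 and 0.73 at 10 and 0.71, 0.64 and -0.40 at 13 months. Every older control lay below every 4-month control. Its partner in type I collagen, Col1a2, was 4.22, 4.92, 4.44 and 4.47, then 3.16, 2.57 and 4.39, 3.54, 3.59, 3.79 and 3.82 and 3.83, 3.77 and 2.59, with log2 differences of -1.14, -0.83 and -1.11. Type III collagen, Col3a1, was 3.86, 4.29, 3.57 and 3.89, then 2.38, 1.85 and 3.47, 2.80, 2.63, 3.17 and 2.97 and 2.999, 3.08 and 1.75, with differences of -1.34, -1.01 and -1.29. Neither Col1a2 nor Col3a1 was called over 49 arrays, while Col3a1 was at 13 months over 44. The 4 fibrillar collagens, Col5a1 of the fibril core included, had a median of -1.20 at 13 months, each with an unadjusted p under 0.05.

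In the exposed rats the type I and type III collagen genes were read on the same scale. After 50 kBq in young rats, Col1a2 was 4.83, 5.20, 5.36 and 4.71 at 3 months, 4.13, 4.25, 4.13 and 4.52 at 6 and 4.32, 3.13, 4.49 and 3.05 at 9 months, and Col3a1 was 4.03, 4.40, 4.59 and 4.29, then 3.20, 3.40, 3.18 and 3.39 and 3.49, 2.56, 3.15 and 2.49. At the other activities at 9 months, Col1a2 was 4.07, 4.12, 2.67 and 4.03 after 0.5 kBq, 3.96, 3.53 and 3.76 after 5 kBq and 3.58, 4.11, 3.96 and 3.69 after 500 kBq, and Col3a1 3.73, 3.03, 1.49 and 3.15, 3.42, 2.45 and 2.82 and 2.62, 3.04, 3.17 and 2.87. In adult rats Col1a2 was 3.92, 4.47, 4.11 and 4.35 at 3 months, 3.98, 4.18, 3.84 and 3.23 at 6 and 4.23, 3.81, 3.67 and 2.98 at 9 months, and Col3a1 2.91, 3.36, 3.11 and 3.36, 3.28, 3.20, 2.59 and 2.69 and 2.97, 3.04, 2.56 and 2.03. As a description over exposed and untreated rats together, the 8 arrays of 4-month-old rats had Col1a1 between 1.70 and 3.31, and 40 of the 41 arrays of older rats lay below the lowest of them. For Col3a1 it was again 40 of 41, and for Col1a2 33 of 41. For Col5a1 it was 0 of 41, its lowest 4-month array being the dim one. Without the 3 doubtful arrays, it was 16 of 40 for Col5a1 and 39 of 40 for Col1a1. Outside the fibrillar collagens, Eln had 38 of 41, Fbn1 had 1, and Lum and Dcn had 0. The share of all probes with such a count was not computed. The remaining Col1a1 values were 1.21, 1.25, 0.89 and 0.62 in adult rats at 6 months and 1.04, 0.89, 0.61 and -0.28 at 9 months.

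**Figure D2:**
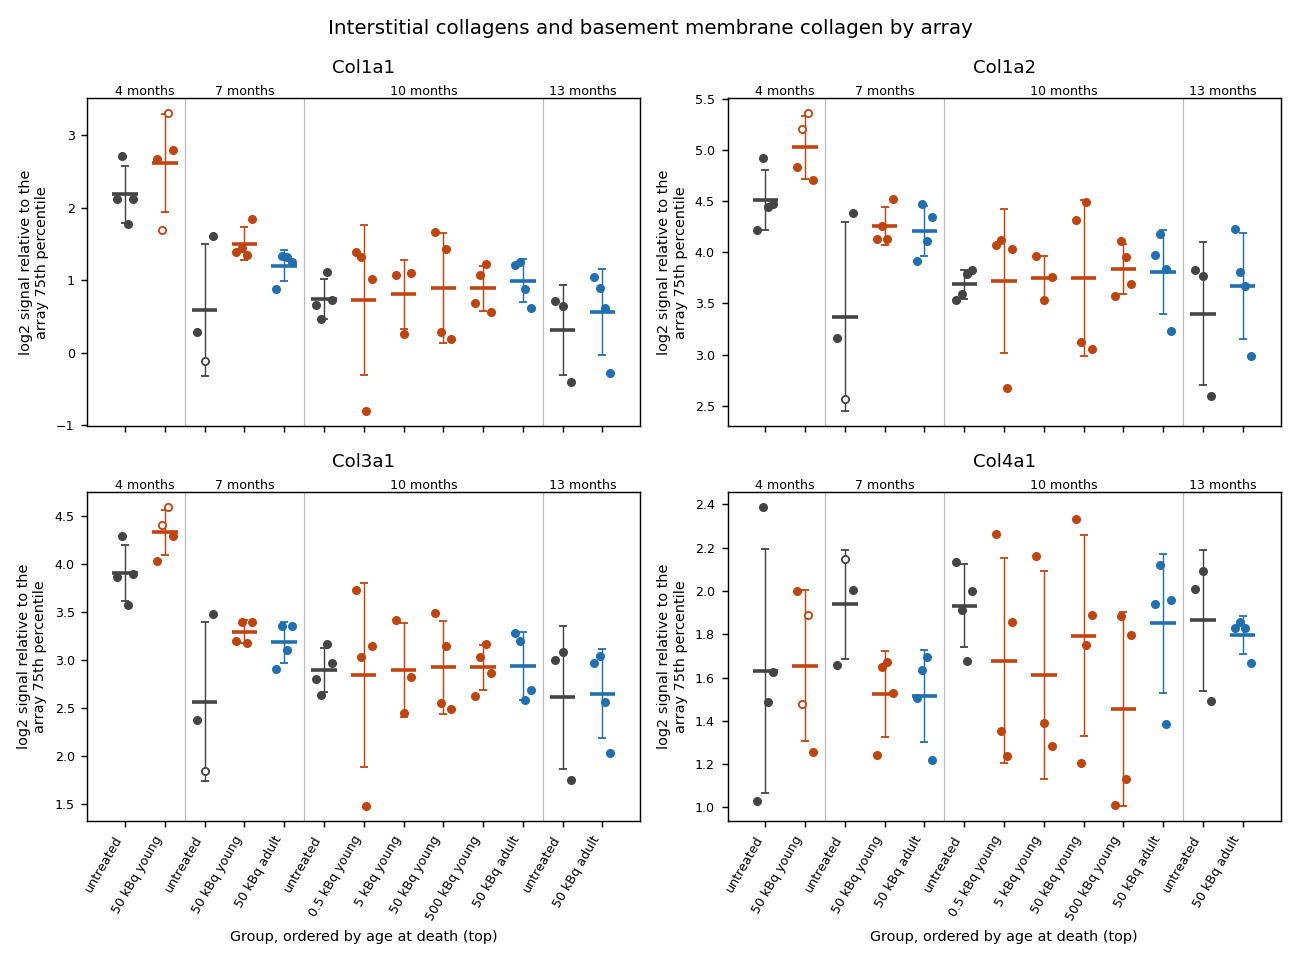
Levels of Col1a1, Col1a2, Col3a1 and Col4a1 (log2, relative to the array's 75th percentile) on each of the 49 arrays by group and age; bars are means, error bars SD, grey untreated, orange injected young, blue injected adult, open circles the 3 doubtful arrays. Of the 41 arrays of older rats, 40 lie below the lowest array of 4-month-old rats for Col1a1, 33 for Col1a2 and 40 for Col3a1. The ranges of Col4a1 overlap. The share of all probes with such counts was not computed.

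The basement membrane collagens did not follow the fibrillar ones. Col4a1 was 1.03, 2.39, 1.49 and 1.62 in controls of 4 months, 1.66, 2.15 and 2.003 at 7, 2.13, 1.91, 1.68 and 2.001 at 10 and 2.01, 2.09 and 1.49 at 13 months, with log2 differences from 4 months of 0.31, 0.30 and 0.23, none with an unadjusted p under 0.05. In young rats given 50 kBq it was 1.998, 1.48, 1.89 and 1.26 at 3 months, 1.24, 1.65, 1.67 and 1.53 at 6 and 2.33, 1.21, 1.75 and 1.89 at 9 months. It was 2.26, 1.35, 1.24 and 1.86 after 0.5 kBq, 2.16, 1.39 and 1.28 after 5 kBq and 1.01, 1.88, 1.13 and 1.80 after 500 kBq. All these ranges overlapped. Adult rats had 1.51, 1.64, 1.70 and 1.22 at 3 months, 1.94, 2.12, 1.38 and 1.96 at 6 and 1.83, 1.86, 1.83 and 1.67 at 9 months. The other Col4a1 probe, well above background on 48 arrays, gave 0.88, 0.42 and -0.07 at 7, 10 and 13 against 4 months in controls. In adult rats 3 and 9 months after 50 kBq it gave -0.80 and 0.57, where the brightest probe gave -0.42 and -0.07. None of these was called. Col18a1, the source of endostatin, was at 0.48 at 13 months. Of the 13 groups, the array lowest in Col1a1 was also lowest in Col3a1 in 10 and in Col1a2 in 9, but in Col4a1 in 3.

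Among the glycoproteins and elastic fibres, all 3 genes had negative differences at 13 months, with a median of -1.24. Fbn1 was 0.21, 0.10, -0.82 and -0.12 at 4 months, -2.01, -1.60 and -0.47 at 7, -0.66, -0.23, -0.39 and -0.40 at 10 and -1.47, -1.45 and -2.26 at 13 months. All 3 arrays of 13 months lay below all of 4 and 10 months, and the 10-month difference was only -0.26. In adult rats of 13 months, after 50 kBq, Fbn1 was -0.42, -0.98, -1.05 and -1.13, all above the 13-month controls, as for 9.76% of probes (log2 fold change 0.83, not called). Its values were -0.16, -2.12, -0.67 and -0.03, -0.44, 0.01, -0.35 and -0.25 and -0.24, -1.29, -0.71 and -1.13 in young rats 3, 6 and 9 months after 50 kBq. The other groups held 0.34, 0.19, -1.94 and -0.31 after 0.5 kBq, -0.21, -0.66 and -0.17 after 5 kBq, -0.25, -0.37, -0.35 and -0.54 after 500 kBq, and -0.97, -0.34, -0.98 and -0.26 and 0.04, -0.22, -0.54 and -0.34 in adult rats at 3 and 6 months. The lowest of the young 50 kBq arrays, at -2.12, was the dim one. Eln, elastin itself, was at -1.56, -1.26 and -1.12 at 7, 10 and 13 months against 4 months, with no overlap in any of the 3. Its other probe, well above background on 42 arrays, gave smaller differences of -0.32, -0.83 and -0.99, none called.

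Fn1, fibronectin, was 2.51, 2.45, 1.20 and 1.98 in controls of 4 months, 0.18, 0.04 and 1.75 at 7, 1.67, 1.90, 1.64 and 1.83 at 10 and 1.17, 0.91 and 0.30 at 13 months. Its 13-month difference was -1.24, but its other probe gave -0.21, so the 2 probes disagreed. Young rats given 50 kBq had 1.88, 0.41, 2.73 and 2.21 at 3 months, 1.73, 2.03, 1.98 and 2.16 at 6 and 1.71, 0.67, 2.12 and 1.11 at 9 months. The other exposed groups overlapped these, with 2.36, 2.19, 0.55 and 1.61 after 0.5 kBq, 1.41, 1.62 and 1.45 after 5 kBq and 1.70, 1.78, 1.32 and 1.45 after 500 kBq, and with 1.26, 2.03, 1.34 and 2.19, 2.20, 1.83, 1.48 and 0.85 and 2.37, 1.36, 0.93 and 0.88 in adult rats at 3, 6 and 9 months. For Fn1, every array after 5 kBq lay below every 10-month control, as for 6.84% of probes (log2 fold change -0.26, not called). Col14a1 was at -1.41 at 13 months and its other probe at -1.80 (adjusted p = 0.005).

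The small proteoglycans were mixed. At 13 months Lum was at -1.94 and Dcn, which encodes decorin, a proteoglycan that binds TGF-beta, at -1.08, both with no overlap, while Bgn (biglycan) and Fmod (fibromodulin) were at 0.31 and 0.02. Lum was 0.29, -0.46, -0.37 and -0.23 at 4 months and -2.05, -1.87 and -2.48 at 13 months. The crosslinking enzymes Loxl1 and Loxl2 were at -0.51 and -0.17, neither with an unadjusted p under 0.05.

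**Figure D3:**
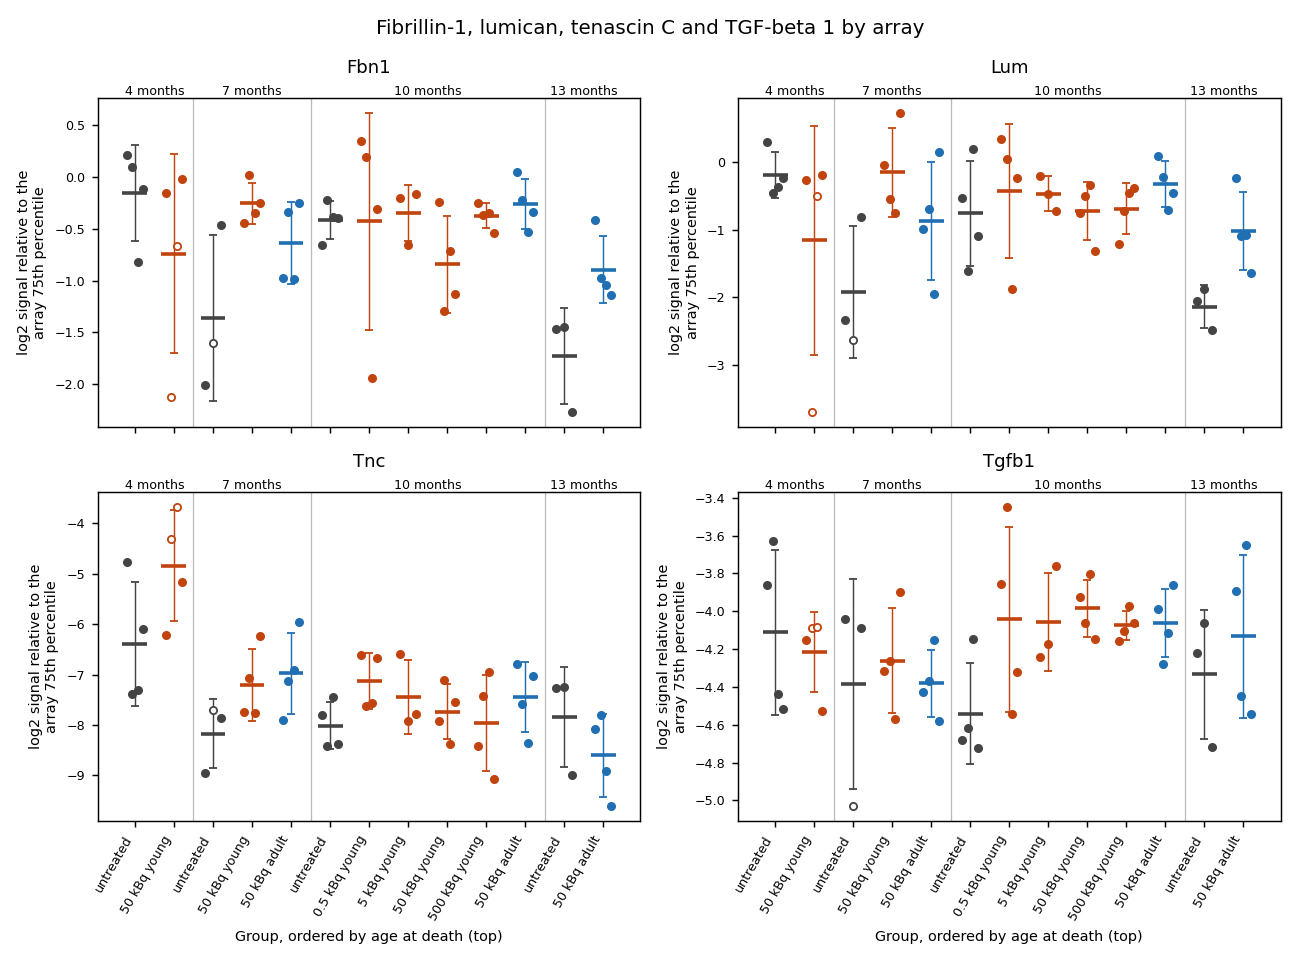
Levels of Fbn1, Lum, Tnc and Tgfb1 on each array (log2, relative to the array's 75th percentile), with the same groups, colours and symbols as in the plot of collagen levels. By group mean, Fbn1 and Lum are lowest in the 13-month controls and Tnc is highest in young rats 3 months after 50 kBq. The lowest single Lum value, -3.69, is on the dim array. Tgfb1 stays between -5.03 and -3.45 on all arrays.

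Matricellular proteins are secreted into the matrix and steer cells rather than bear load. Sparc, which binds collagen, was 4.18, 4.48, 3.79 and 4.08 in controls of 4 months, 3.14, 3.82 and 4.15 at 7, 4.05, 3.85, 3.69 and 3.68 at 10 and 3.54, 3.63 and 3.05 at 13 months (-0.72 at 13 months). In young rats it was 4.65, 3.78, 5.18 and 4.40, 3.71, 4.04, 3.72 and 4.17 and 4.54, 3.36, 4.23 and 3.73 at 3, 6 and 9 months after 50 kBq, and 4.47, 3.78, 3.04 and 3.85, 3.90, 3.24 and 3.76 and 3.49, 3.93, 3.91 and 3.43 after 0.5, 5 and 500 kBq. In adult rats it was 3.42, 3.89, 3.62 and 3.79, 3.82, 3.80, 3.75 and 3.88 and 4.11, 3.59, 3.88 and 3.59 at 3, 6 and 9 months. The 3 arrays of 13-month controls lay below all 4 of 4 months, and the other groups overlapped their controls.

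Postn, which encodes periostin and promotes collagen assembly, varied most between replicates of the genes well above background on nearly all arrays, with a within-group SD of 0.871 over 49 arrays. Over 46 arrays, without the 3 doubtful ones, Fmod had an SD of 0.793 and Postn 0.787. Postn was -1.62, -1.30, -2.09 and -1.86 in controls of 4 months, -3.95, -2.42 and -2.77 at 7, -2.25, -3.20, -3.06 and -3.27 at 10 and -2.003, -1.88 and -4.36 at 13 months. Every 7-month and every 10-month control lay below all 4-month controls, while 2 of the 13-month ones, the near-identical pair, reached them. In young rats given 50 kBq it was -2.13, -3.73, -0.21 and -2.45, -4.60, -3.20, -2.72 and -2.07 and -2.64, -3.13, -3.48 and -3.10 at 3, 6 and 9 months, and at the other activities -2.28, -4.07, -4.14 and -1.94, -2.52, -4.61 and -3.81 and -3.43, -2.63, -4.11 and -3.42. In adult rats it was -3.58, -3.06, -3.42 and -2.23, -2.13, -2.12, -3.84 and -3.04 and -2.73, -3.23, -2.73 and -3.49, and no exposure comparison of Postn was called.

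Tnc, which encodes tenascin C, a protein of developing and healing tissue, was the 1 gene called over time in exposed rats. In young rats given 50 kBq it was -6.21, -4.32, -3.68 and -5.16 at 3 months, -7.74, -7.07, -7.76 and -6.24 at 6 and -7.91, -7.11, -8.38 and -7.54 at 9 months, and was well above background on 3, 2 and 1 of the 4 arrays. The 9-month arrays all lay below the 3-month ones, as for 5.73% of probes, and Tnc fell by 2.90 ± 0.57 on the log2 scale (adjusted p = 0.0081). That was 1 of 33 genes, while 0.368% of all probes were called and 0.269% called lower. The call was lost without the dim array (-2.72, adjusted p = 0.040) and over 44 arrays (-2.05, adjusted p = 0.36). It was also lost without replicate 3 of the 3-month group, which was low in thyrocyte markers (-2.51, adjusted p = 0.027). Leaving out any 1 of the 4 arrays of 9 months also lost it, while 7 genes were called without replicate 1 of the 3-month group (19.1% of probes) and 6 without replicate 4 (14.8% of probes). In untreated rats Tnc was -4.76, -7.39, -7.31 and -6.10 at 4 months, -8.96, -7.70 and -7.87 at 7, -7.81, -8.41, -7.45 and -8.37 at 10 and -7.27, -7.26 and -8.99 at 13 months, well above background on 2, 0, 1 and 0 arrays. The remaining groups held -6.62, -7.63, -7.57 and -6.67, -6.59, -7.93 and -7.79 and -8.42, -7.43, -6.94 and -9.06 after 0.5, 5 and 500 kBq, and -7.90, -7.14, -6.90 and -5.95, -6.79, -7.58, -8.35 and -7.03 and -8.09, -7.81, -8.92 and -9.60 in adult rats at 3, 6 and 9 months.

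Of the metalloproteinases, Mmp2, a gelatinase, was 3.15, 2.93, 2.24 and 2.75 in controls of 4 months, 0.94, 1.53 and 2.53 at 7, 1.75, 1.82, 2.26 and 1.94 at 10 and 1.83, 2.01 and 0.47 at 13 months, a difference of -1.33 at 13 months with no overlap. After 50 kBq in young rats it was 2.75, 2.05, 3.41 and 2.68, 1.92, 2.63, 1.99 and 2.60 and 2.29, 1.48, 2.47 and 1.69 at 3, 6 and 9 months. It was 2.69, 2.18, 0.59 and 2.35, 2.37, 1.82 and 1.90 and 1.96, 2.30, 2.22 and 2.04 at the other activities, and 2.07, 2.43, 2.16 and 2.45, 2.27, 2.42, 2.02 and 1.75 and 2.38, 1.996, 1.64 and 1.60 in adult rats. Mmp14, which activates Mmp2 at the cell surface, was at 0.40 at 13 months (unadjusted p above 0.05).

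Mmp3, which encodes stromelysin, was well above background on 1 array of the 4-month controls and on 2 of young rats 3 months after 50 kBq, and on no other array. The values of those groups were -6.28, -4.10, -8.46 and -8.35 and -9.08, -2.76, -4.90 and -6.71. All others lay low and had only a bound, with -8.36, -8.29 and -8.14, -8.08, -9.03, -8.64 and -8.52 and -8.08, -8.09 and -8.23 in controls of 7, 10 and 13 months. They were -9.01, -9.02, -8.82 and -7.66 and -8.02, -8.85, -8.61 and -9.42 in young rats 6 and 9 months after 50 kBq, -8.23, -8.30, -7.69 and -8.93, -8.61, -8.54 and -8.50 and -7.49, -8.16, -7.43 and -8.52 at 0.5, 5 and 500 kBq, and -9.20, -9.23, -8.70 and -8.41, -8.76, -8.94, -8.98 and -8.92 and -8.49, -9.06, -8.18 and -9.73 in adult rats. The highest Mmp3 value, -2.76, was on the dim array.

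The inhibitors of metalloproteinases lay on the other side, with a median of 0.50 at 13 months. Timp3 was at 1.25 (values -2.12, -0.97, -1.002 and -1.93 at 4 and 0.06, 0.24 and -1.06 at 13 months, 1 of them overlapping), and was not called over 49 arrays. It was called higher without the dim array (adjusted p = 0.0094) and over 46 arrays (adjusted p = 0.0038), but not over 44. Timp1, an inhibitor that rises in many fibrotic tissues, was 0.96, 0.85, 0.76 and 0.51 in controls of 4 months, 0.33, -0.94 and 1.10 at 7, 0.63, 0.62, 0.91 and 0.79 at 10 and 1.23, 1.27 and 0.84 at 13 months. Its lowest value, -0.94, was on the 7-month array low in thyrocyte markers. Exposed young rats had 0.54, 1.22, 0.48 and 0.67, 1.23, 0.78, 1.06 and 0.89 and 0.62, 0.57, 1.19 and 0.21 at 3, 6 and 9 months after 50 kBq, and 1.15, 1.38, 0.79 and 0.69, 1.09, 1.46 and 1.14 and 0.43, 0.75, 0.71 and 1.31 after 0.5, 5 and 500 kBq. Adult rats had 1.14, 0.97, 0.45 and 1.12, 0.88, 0.84, 1.01 and 0.40 and 1.28, 1.12, 0.79 and 0.49. No exposure comparison of Timp1 was called. All 3 arrays after 5 kBq lay above all 4 controls of 10 months, as they did for 8.54% of probes.

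The TGF-beta ligands and receptors had a median of -0.22 at 13 months. Tgfb1 was -3.86, -3.63, -4.44 and -4.52 at 4 months, -4.04, -5.03 and -4.09 at 7 and -4.22, -4.06 and -4.72 at 13 months in controls, overlapping ranges. Young rats 3 and 6 months after 50 kBq had -4.15, -4.09, -4.08 and -4.53 and -4.32, -4.27, -4.57 and -3.90, and adult rats after 3 and 9 months -4.43, -4.37, -4.15 and -4.58 and -3.89, -4.45, -3.65 and -4.54. Tgfb3 was at -0.93 at 13 months with no overlap, and Tgfb2 also at -0.93 by 1 probe and at 0.01 by the other. The receptors Tgfbr1 and Tgfbr2 were at 0.32 and 0.71 by their brightest probes, neither with an unadjusted p under 0.05. The other probe of Tgfbr2 was at 1.27 (adjusted p = 0.037), not called.

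**Figure D4:**
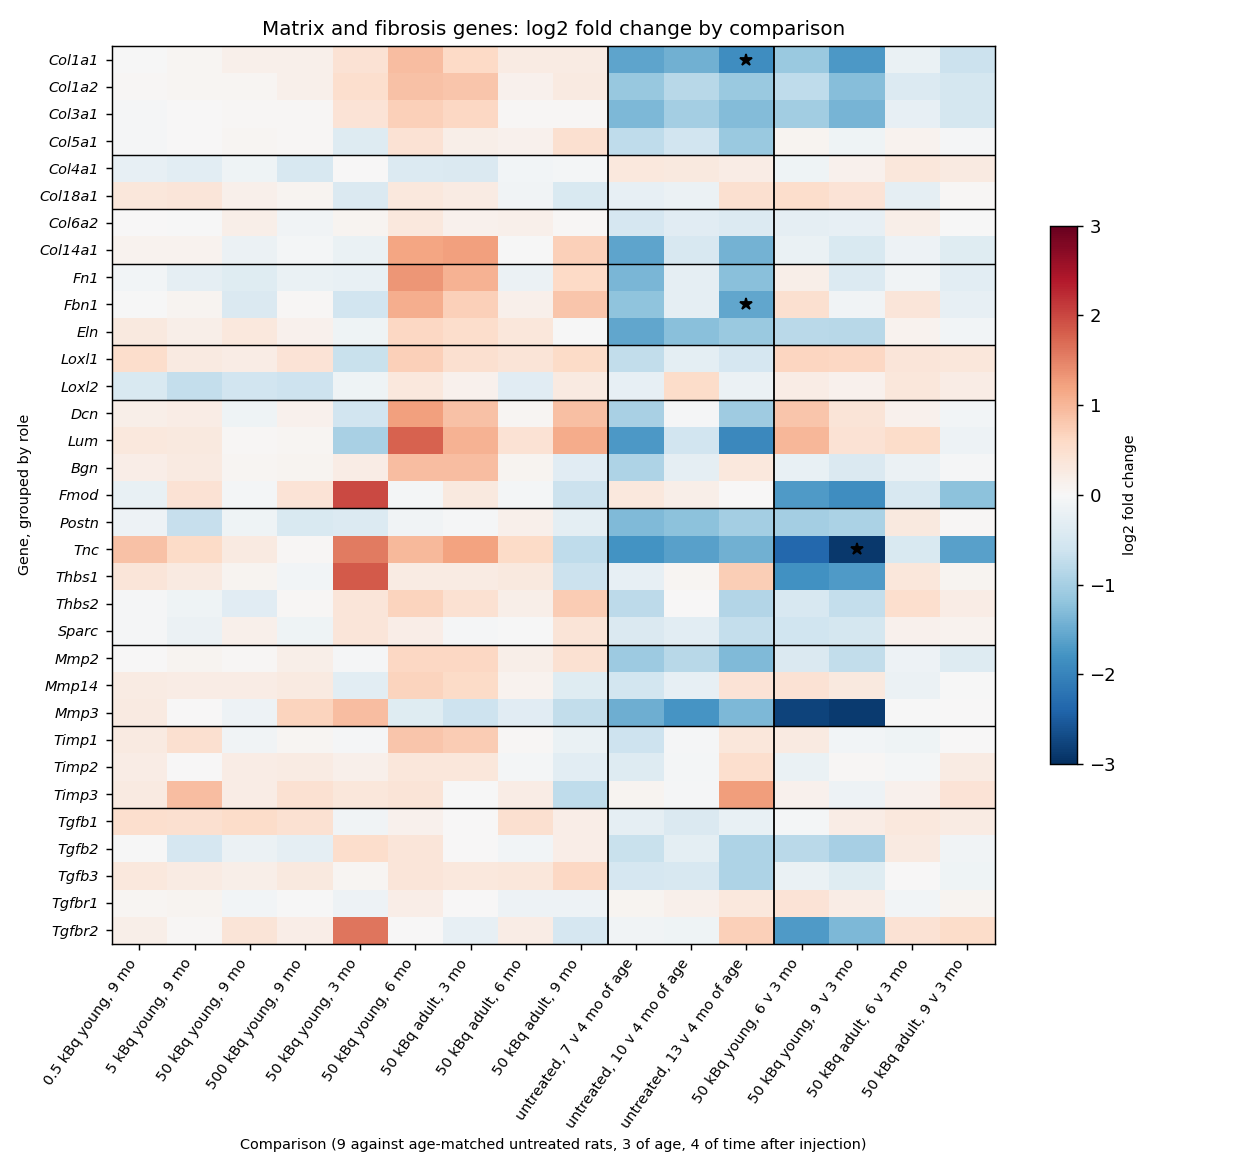
Log2 fold changes of the 33 matrix genes, ordered by role (vertical), in each comparison (horizontal), with stars on the calls. The 3 stars are Col1a1 and Fbn1 in 13-month against 4-month controls and Tnc in young 50 kBq rats at 9 against 3 months.

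Over time after 50 kBq, the young rats, which passed from 4 to 10 months of age, had set medians of -0.20 at 6 and -0.40 at 9 months against 3 months, while all probes were at -0.31 and -0.26. At 6 months 0 genes were called (0.221% of probes), and 13 genes had an unadjusted p under 0.05 (40.5% of probes), as did 12 at 9 months (39.4% of probes). Over 44 arrays the medians were -0.19 and -0.35, and those of all probes -0.02 and 0.03. Within the shared scan date they were -0.50 and -0.69. Col1a1 was at -1.11 at 6 months (adjusted p = 0.043) and -1.72 at 9 months (adjusted p = 0.011), Col1a2 at -1.28 and Col3a1 at -1.40 at 9 months. None was called, and over 44 arrays Col1a1 was at -1.84 at 9 months with an adjusted p of 0.34. Adult rats, which passed from 7 to 13 months of age, had medians of 0.11 and -0.01, with 0 called at 6 months (0.0119% of probes) and at 9 months (0% of probes), 0 and 2 genes at an unadjusted p under 0.05 (2.17% and 2.55% of probes), and Col1a1 at -0.21 and -0.63.

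Genes of related processes were taken from lists outside the set. In the 9 exposure comparisons none of the collagen processing, basement membrane, other matrix, TGF-beta signalling or fibroblast genes was called. At 13 against 4 months in controls, 3 of 32 other matrix genes were called lower, beside 5.15% of all probes called and 2.1% called lower: Vcan, the large proteoglycan versican, at -2.22 (adjusted p = 0.0052), Ltbp4, which anchors latent TGF-beta, at -1.60, and the protease gene Adamts1 at -1.55. Of 10 basement membrane genes the laminin gene Lamc1 was called, at -1.08, and of 21 TGF-beta signalling genes and targets Tgfbi was called lower at -1.31 and the inhibitory Smad6 higher at 1.06. Of 20 collagen processing enzymes and chaperones 0 were called, with a median of 0.38, and of 19 fibroblast markers 0, with a median of -0.30. At an unadjusted p under 0.05 these last lists had 6 higher and 1 lower, and 1 higher and 6 lower, beside 20.5% of probes higher and 13.5% lower.

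Marker lists of other tissues moved with age too. The mean level of 12 skeletal muscle genes was 2.65 to 3.95 in the controls of 13 months against 5.44 to 6.77 at 4 months, and 12 of 12 had a negative log2 difference, with a median of -2.31. The 12 thyrocyte genes averaged 1.75 to 2.11 at 13 months and -0.31 to 1.72 at 4 months. The 10 cartilage genes with a probe averaged -6.25 to -3.40 in 4-month controls and -3.09 to -1.21 in young rats 3 months after 50 kBq, against -6.43 to -2.33 in the other groups. The 12 C cell genes had a median difference of 2.42 at 13 months, and 9 macrophage genes -0.66. The 11 squamous epithelium genes with a probe averaged 0.58, -6.28, 0.04 and -1.24 on the 4 arrays of 4-month controls, against -6.47, -6.09 and -6.14 at 13 months. They were thus high on 3 of the 4 control arrays that Col1a1 and Fbn1 were compared with, and the 10 that were tested had a median difference of -5.18, 7 of them lower at an unadjusted p under 0.05 and 0 called. The 8 proliferation genes had a median of -1.05 with 1, Bub1, called lower, and the 12 smooth muscle and pericyte genes a median of -0.24 with 0 called. At 10 months the muscle median was 0.36, the thyrocyte median 0.29 and the squamous median -2.93, while Col1a1 and Col3a1 were at -1.44 and -1.01. The part of these tissues in the collagen differences was not tested.

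**Figure D5:**
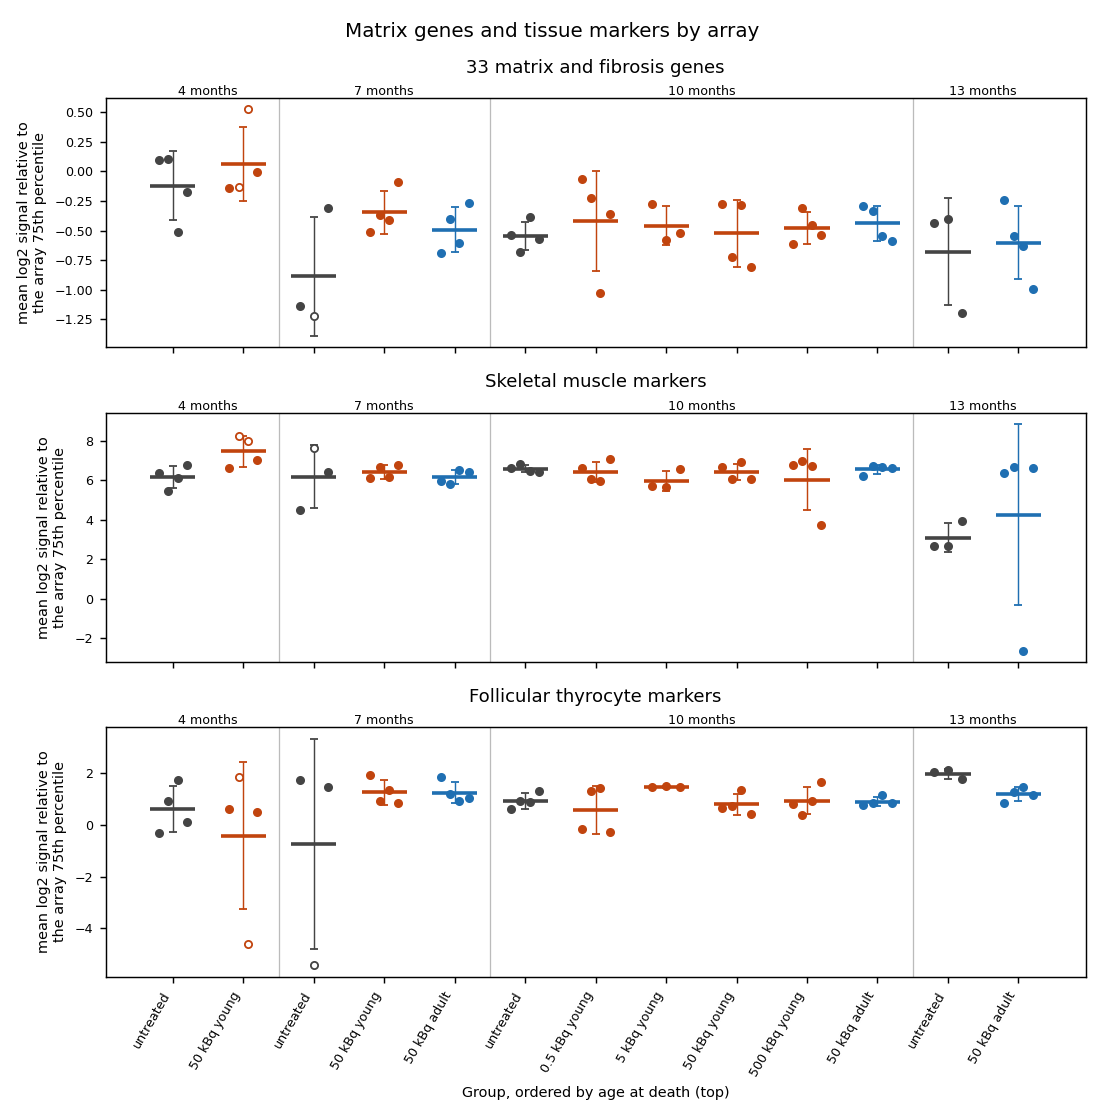
Mean level (log2, relative to the array's 75th percentile) of the 33 matrix genes, of 12 skeletal muscle genes and of 12 thyrocyte genes on each of the 49 arrays by group, with the same colours and symbols as in the plot of collagen levels. Thyrocyte genes are low on 2 arrays only, at -4.60 and -5.42, and muscle genes lie below 5.44 on the 3 arrays of 13-month controls (2.65 to 3.95) and on 1 array each of adult rats at 9 months (-2.61), young rats given 500 kBq (3.71) and 7-month controls (4.50).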

How the data were processed

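Per the labels, thyroids of single rats were profiled on Agilent SurePrint rat arrays with 1 colour (Cy3). For the near-identical pairs, whether the animals were separate could not be told. The authors extracted signals with Feature Extraction 10.7.3.1 and deposited an intensity per probe, background-subtracted and without normalization between arrays. The labels name Partek, with no version, for the authors' later steps. A deposited table of fold changes was not used. Groups came from the labels. The members and lists were chosen with earlier results of these data known.

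Here log2 of the processed intensity minus each array's 75th percentile was fitted with limma 3.58.1 (R 4.3.3) over 49 arrays and 13 group means. Probes well above background on at least 3 arrays were tested, with Benjamini-Hochberg adjustment over all 25304 (23005 over the 14 controls, 23140 over the 15 exposed arrays at 9 months). Genes were called at an adjusted p under 0.01 and a fold change beyond 1.5. Values of every array are given for a list of genes fixed by name and for called members, and the member of smallest p is named in each exposure comparison. Probes were named by accession. Coordinates of probes were not used here. Alternatives were quantile normalization, normexp (offset 50, on median spot signals in place of means), other filters and thresholds, averaged probes, slide, scan date or replicate blocks, array weights, pairs of groups alone and single arrays left out. The fit was tested on simulated data. Precision is limited by 3 or 4 arrays per group.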

Additional observations from a re-analysis of the deposited data

Results flagged for a closer look

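Of 140 tests of a gene in a group of 4 arrays, 6 had 1 array far from the other 3, and chance gives about 1 in 20. In young rats 9 months after 0.5 kBq, replicate 3 was low in Col1a1, at -0.81 against 1.01 on the nearest array, and in Col1a2, at 2.67 against 4.03. In adult rats 3 months after 50 kBq, replicate 1 had Col1a1 at 0.88 against 1.26. In adult rats 9 months after 50 kBq, replicate 4 had Col4a1 at 1.67 against 1.83. In young rats given 50 kBq, replicate 4 at 6 months had Mmp3 at -7.66 against -8.82, not well above background, and replicate 4 at 3 months had Tgfb1 at -4.53 against -4.15.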

How the results depend on the processing

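In controls of 13 against 4 months, the 2 calls became 1 under quantile normalization, under normexp with quantile normalization, with no filter on dim probes and with a replicate block, 11 at an adjusted p under 0.05 and 14 with array weights. They became 0 with each pair of groups alone, 0 with near-identical arrays averaged and 6 without the dim array. They became 9 over 46 arrays (those low in thyrocyte markers left out too) and 5 over 44. Higher were 1 of the 11, 4 of the 14, 1 of the 6 and 1 of the 9, and the 5 over 44 arrays were all lower. The share of all probes called, 5.15% at first, ran from 3.09% to 6.13% in the settings with 1 call, and was 17.7% at an adjusted p under 0.05, 36.7% with array weights, 0% with each pair alone, 0.0158% with near-identical arrays averaged, and 16%, 22% and 10.2% over 48, 46 and 44 arrays. The median of -0.87 became -0.46 with normexp and the 75th percentile, -0.52 with normexp and quantile, -0.55 with array weights and 0.0070 within scan date 2.

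For young 50 kBq rats at 9 against 3 months, the 1 call became 0 under quantile normalization, both normexp settings, the filter on every array of a group, slide as a random or fixed block, the replicate block, each pair alone, near-identical arrays averaged, and 48, 46 or 44 arrays. It became 3 with array weights (6% of probes) and 9 at an adjusted p under 0.05 (19.1%). At 6 against 3 months the 0 calls became 1 with normexp and the 75th percentile, 2 with slide as a random block, 4 with array weights and 7 at an adjusted p under 0.05, beside 1.01%, 2.51%, 8.48% and 20.5% of probes. At 3 months against controls, 3 were called at an adjusted p under 0.05 (16.9% of probes).

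Array weights gave the dim array a weight of 0.000442 (median 7.83), and their estimation stopped early. With them 20 genes were called in young rats at 6 months (median 0.88), 20 in adult rats at 3 months (median 0.79), 5 in adult rats at 9 months, 23 in controls of 7 against 4 months and 5 in the difference between young and adult effects at 9 months, beside 26.4% to 33% of all probes in these 5 comparisons. The cause was not tested. Within scan dates the medians moved to -0.17 (5 kBq, date 3), 0.33 and -0.091 (adult at 6 months, dates 1 and 3), 0.39 (adult at 9 months, date 1), -0.29 (7 against 4 months, date 2), -0.60 (10 against 4 months, date 1) and -0.50 (young at 6 against 3 months, date 1).

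With single arrays left out, calls ran from 0 to 5 at 13 against 4 months, 0 to 3 in young rats at 3 months, 0 to 4 at 6 against 3 months and 0 to 7 at 9 against 3 months, where 15% to 16.9%, 16.9% to 20% and 14.8% to 19.1% of all probes were called in the fits of the last 3 comparisons that called a gene of the set. Medians ran from -0.96 to -0.54 at 13 and -0.48 to -0.19 at 10 against 4 months, 0.023 to 0.19 at 500 kBq and 0.32 to 0.85 in young rats at 6 months. Replicate numbers did not pair the samples: 279 pairs of same-numbered arrays deviated with a median correlation of -0.026 (-0.70 to 0.70). The replicate block changed no other call. No called result changed direction. Within scan date 3, medians changed sign in young rats 9 months after 0.5, 5 and 50 kBq (-0.022, -0.17 and -0.14). They also did in adult rats at 6 months (-0.091) and for 500 against 0.5 kBq (0.070). In adult rats the median at 6 against 3 months was -0.034 within date 2, and at 9 against 3 months 0.098 within date 1. The median of controls of 13 against 4 months was 0.0070 within date 2. Medians without a call also changed sign with single arrays left out, as in adult rats at 9 months (-0.13 to 0.21) and young rats at 50 kBq at 9 months (-0.061 to 0.17). Of the summary values under alternatives, 1000 stayed on their side of the threshold or within 1 SD and 71 did not. Low signal limits Mmp3, Thbs1 and Tnc.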
